A study of Lathyrus oleraceus with 9 samples.

Results

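Glycolysis is described here by 10 called probes among the 5246 of a pea oligonucleotide array. These stood for 8 enzymes of the pathway from hexokinase to pyruvate kinase. They were hexokinase (PSOLI01657), phosphofructokinase (PSOLI03813), fructose-bisphosphate aldolase (PSOLI04449), 3 probes of glyceraldehyde-3-phosphate dehydrogenase (GAPDH; PSOLI03899, PSOLI00908 and PSOLI04285), phosphoglycerate kinase (PSOLI04847), phosphoglycerate mutase (PSOLI03795), enolase (PSOLI04156) and pyruvate kinase (PSOLI04899). The probes were taken by product name from the study's list of called probes, which holds probes whose ratio of aged to non-aged seeds had reached the fold threshold at 1 or more ageing times on these same arrays. The ratios themselves therefore chose the probes, and they are given here as a description without a test. Product names were at hand only for probes of the study's list. Probes of these enzymes that were not called could therefore not be included. A probe of glucose-6-phosphate isomerase or of triosephosphate isomerase, the remaining enzymes of the pathway, was not found among the named probes. These steps were not analysed here.

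Seeds of pea cv Alaska Early were brought to a moisture content of 12% at 60% relative humidity and then aged at 50°C for 8, 12 or 15 d. The non-aged seeds had the same moisture treatment without the heat. Each of the 9 arrays, 3 per ageing time, compared RNA of aged seeds with RNA of non-aged seeds in 2 colours. The study describes its replicates as biological replicates of 20 seeds each. Each value is the log2 ratio of the aged to the non-aged signal, so that 1 is a doubling and -1 a halving. Whether the ageing times shared the same non-aged RNA was not stated, so comparisons over non-aged seeds may share it. Ground whole seeds were used, which mixes embryo tissues and seed coat, and ratios hold no levels, so that markers of seed tissue could not be checked and the probes cannot be ranked by abundance. Less RNA of an enzyme per cell and fewer cells that held it cannot be told apart. The study describes loss of RNA integrity during this treatment; integrity values were not analysed here.

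Medians of the arrays were between 0.01 and 0.02. The median absolute deviation over all probes was 0.385 on the arrays of 8 d, 0.400 on those of 12 d and between 0.445 and 0.460 on those of 15 d, so that ratios of all probes spread wider at 15 d. Arrays of the same time correlated across probes at a Pearson's r of between 0.974 and 0.984. Probes are not independent replicates.

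Glycolysis turns hexose sugars into pyruvate. In its first stage ATP is spent by hexokinase and phosphofructokinase, and aldolase splits the resulting sugar bisphosphate into triose phosphates. In its second stage GAPDH oxidises these with the reduction of NAD, phosphoglycerate kinase and pyruvate kinase make ATP, and phosphoglycerate mutase and enolase rearrange the phosphoglycerate between these ATP-forming steps. In dry seeds metabolism is largely halted by lack of water, and after imbibition glycolysis is among the pathways that feed respiration.

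The glycolytic probes divided by direction in the same way on all 9 arrays, with 6 probes above 0 and 4 below 0. The 4 kinases and 2 of the GAPDH probes were higher in aged seeds, while aldolase, phosphoglycerate mutase, enolase and the cytosolic GAPDH probe were lower. Calls of up- or down-regulation required a mean log2 ratio whose size was 1 or more, together with an adjusted p under 0.05 in limma. At 8 d, 3 of the 10 probes were called up and 3 down, against 2.52% and 4.48% of all probes. At 12 d the counts were 4 up and 3 down, against 3.13% and 4.77%, and at 15 d 5 up and 4 down, against 5.64% and 7.09%. Nothing is read from the excess over all probes, since this contrast listed the probes. Of the 10 probes, 5 were called at all 3 times, namely phosphoglycerate kinase, pyruvate kinase, aldolase, phosphoglycerate mutase and enolase.

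**Figure D1:**
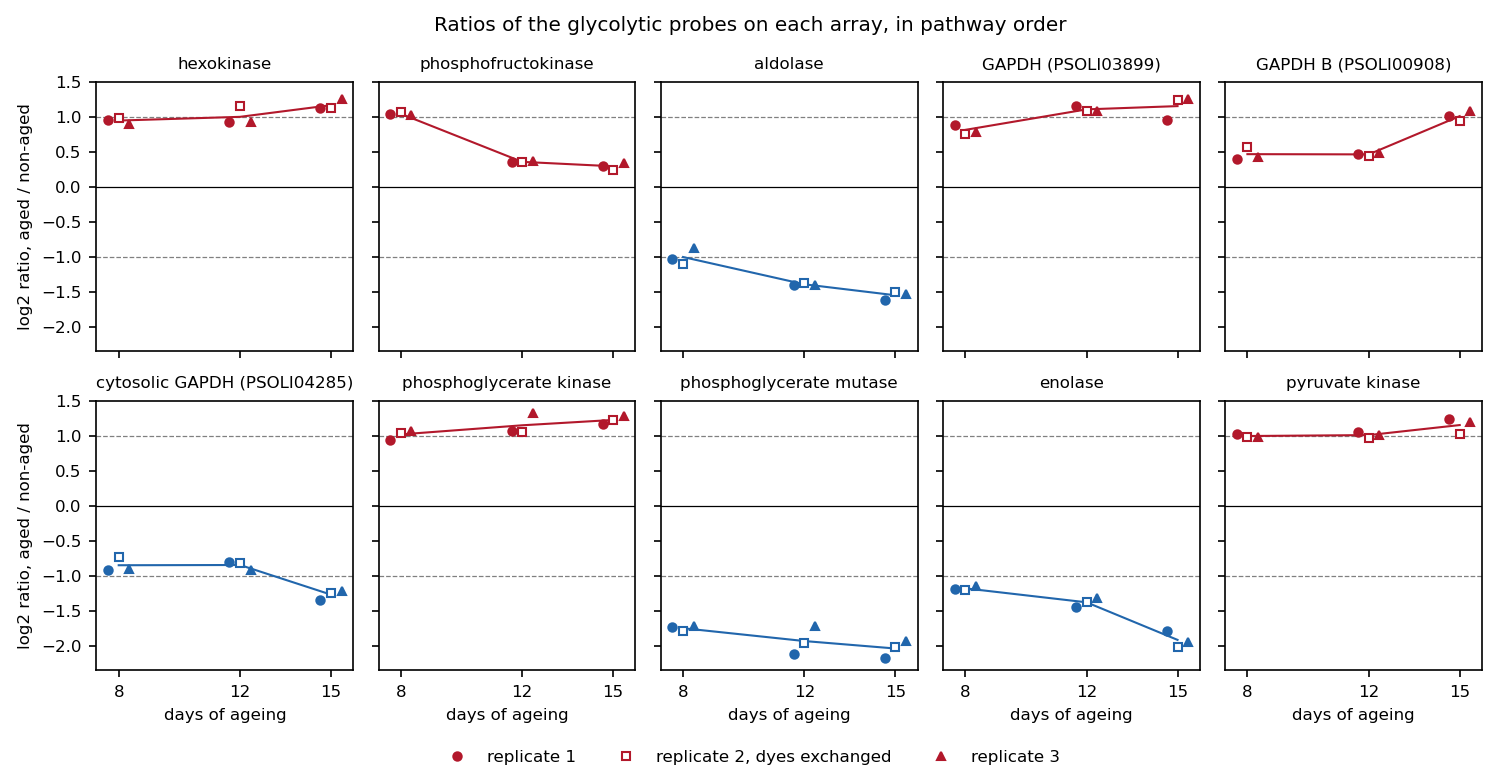
Log2 ratio, aged to non-aged (y axis), against days of ageing (x axis) for the 10 glycolytic probes in pathway order, with 1 point per array, open squares for the arrays with exchanged dyes, lines through the means and dashed lines at the fold threshold of 1 and -1. All 9 points of each probe lie on the same side of 0, and phosphofructokinase is the probe whose ratio came back towards 0, from 1.04 at 8 d to 0.29 at 15 d.

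Hexokinase, which phosphorylates glucose and other hexoses as they enter the pathway, was higher in aged seeds on every array. Its log2 ratios were 0.96, 0.98 and 0.90 at 8 d, 0.92, 1.16 and 0.92 at 12 d, and 1.12, 1.13 and 1.25 at 15 d, in the order of replicates 1, 2 and 3. The arrays of 15 d lay above those of 8 d, and the array of replicate 2 at 12 d lay within the range of 15 d. The mean went from 0.95 ± 0.042 (SD, n = 3) at 8 d to 1.17 ± 0.072 at 15 d, at which 2.76% of all probes lay higher.

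Phosphofructokinase had its highest ratio at the first time sampled. The name was taken as given, and which form of the enzyme this probe measures was not analysed here. The log2 ratios were 1.04, 1.07 and 1.02 at 8 d, then 0.35, 0.35 and 0.37 at 12 d, and 0.30, 0.24 and 0.34 at 15 d. The arrays of 8 d stood clear of all later arrays, whereas those of 12 d and 15 d were close together but did not overlap. In linear terms the mean was 2.06-fold the non-aged level at 8 d, 1.28-fold at 12 d and 1.23-fold at 15 d. Its arrays were also the closest together of the 10 probes, with a residual SD of 0.033 on the log2 scale, smaller than that of all but 2.92% of probes.

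Fructose-bisphosphate aldolase, which splits the sugar bisphosphate, was lower in aged seeds and had its lowest mean at 15 d. The log2 ratios were -1.03, -1.10 and -0.88 at 8 d, -1.40, -1.38 and -1.40 at 12 d, and -1.62, -1.50 and -1.53 at 15 d. No array of one time overlapped with those of another. At 15 d the level was 2.93-fold below that of non-aged seeds. Phosphofructokinase and aldolase act at successive steps, and their ratios had opposite signs while both were lower at 15 d than at 8 d.

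The 3 probes of GAPDH did not behave alike. The product name of PSOLI04285 is cytosolic GAPDH, the form that acts in glycolysis, and this was the GAPDH probe below 0. Its log2 ratios were -0.91, -0.73 and -0.90 at 8 d, -0.80, -0.81 and -0.92 at 12 d, and -1.34, -1.24 and -1.22 at 15 d. Values of 8 d and 12 d overlapped and those of 15 d lay below both.

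PSOLI00908 is named as the chloroplast precursor of GAPDH B, a subunit of the plastid enzyme that works in photosynthetic carbon fixation and not in glycolysis, so that the name of this probe goes against its place in a list of glycolytic enzymes. PSOLI03899, named only as GAPDH, was annotated with the same accession number as PSOLI00908, and the table does not settle which GAPDH it measures. PSOLI00908 read 0.40, 0.57 and 0.43 at 8 d, 0.47, 0.44 and 0.48 at 12 d, and 1.01, 0.94 and 1.08 at 15 d. PSOLI03899 read 0.89, 0.76 and 0.79 at 8 d, 1.16, 1.08 and 1.08 at 12 d, and 0.96, 1.24 and 1.26 at 15 d. Under the shared accession number PSOLI03899 was thus already higher at 12 d than at 8 d, whereas PSOLI00908 was level until 12 d and higher at 15 d.

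Within each array, PSOLI03899 lay above PSOLI00908 by 0.35 ± 0.15 (SD, n = 3) at 8 d and by 0.64 ± 0.045 at 12 d. At 15 d the difference was 0.14 ± 0.18 and ranged from -0.05 to 0.30, so that these probes were not separated beyond their spread. The distance of PSOLI03899 from the cytosolic probe was 1.66 ± 0.16, 1.95 ± 0.056 and 2.42 ± 0.10 at 8, 12 and 15 d. For PSOLI00908 it was 1.31 ± 0.015, 1.31 ± 0.081 and 2.28 ± 0.087. On the linear scale, the ratio of aged to non-aged seeds at 15 d was thus 5.35-fold and 4.85-fold higher for these probes than for cytosolic GAPDH.

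Phosphoglycerate kinase, the first ATP-forming enzyme of the pathway and named in the table as the cytosolic form, was higher in aged seeds throughout. Its log2 ratios were 0.95, 1.05 and 1.07 at 8 d, 1.07, 1.06 and 1.33 at 12 d, and 1.17, 1.23 and 1.29 at 15 d. Arrays of 12 d overlapped with those of both other times, and those of 15 d lay above those of 8 d. The study counted this probe and GAPDH B as housekeeping genes; in these ratios phosphoglycerate kinase was at 1.02 ± 0.064 (SD, n = 3) at 8 d and 1.23 ± 0.06 at 15 d.

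Phosphoglycerate mutase, the form that works without 2,3-bisphosphoglycerate as is usual in plants, had the lowest mean ratio of the glycolytic probes at each time. The log2 ratios were -1.73, -1.79 and -1.72 at 8 d, -2.11, -1.96 and -1.72 at 12 d, and -2.17, -2.01 and -1.93 at 15 d. Only 0.610%, 0.438% and 0.705% of all probes had a lower mean at 8, 12 and 15 d. It was also the probe with the widest spread between arrays, with a residual SD of 0.135, and replicate 3 at 12 d read as high as the arrays of 8 d.

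Enolase, which forms phosphoenolpyruvate, was below 0 at each time and was further from it with longer ageing. Its log2 ratios were -1.18, -1.20 and -1.15 at 8 d, -1.45, -1.37 and -1.31 at 12 d, and -1.78, -2.02 and -1.94 at 15 d. The times did not overlap. The mean level was 2.26-fold below that of non-aged seeds at 8 d and 3.77-fold below at 15 d, when its arrays overlapped with those of phosphoglycerate mutase, the enzyme that acts just before it.

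Pyruvate kinase, which makes ATP from phosphoenolpyruvate at the end of the pathway, stayed near a doubling. The log2 ratios were 1.03, 0.98 and 0.99 at 8 d, 1.06, 0.97 and 1.01 at 12 d, and 1.24, 1.03 and 1.20 at 15 d. The array of replicate 2 at 15 d read as the arrays of earlier times did, and the other arrays of 15 d were higher. Pyruvate kinase and enolase, successive enzymes, lay 2.18 ± 0.035 (SD, n = 3) apart at 8 d and 3.07 ± 0.062 apart at 15 d.

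The kinases were separated from aldolase, phosphoglycerate mutase and enolase on every array, but not from the GAPDH probes PSOLI03899 and PSOLI00908, whose means lay above that of phosphofructokinase at 12 d and 15 d. The lowest of the 4 kinases exceeded the highest of aldolase, phosphoglycerate mutase and enolase by between 1.78 and 2.08 at 8 d, between 1.68 and 1.75 at 12 d and between 1.74 and 1.92 at 15 d on the log2 scale. Both sides were chosen on these values, and no test is given. Cytosolic GAPDH was not part of the lower side and lay nearer to the kinases. Its mean was below that of phosphofructokinase by 1.20 at 12 d and by 1.56 at 15 d. In the order of means at 8 d, phosphofructokinase, phosphoglycerate kinase, pyruvate kinase and hexokinase overlapped with their neighbours, and GAPDH (PSOLI03899) came clear below them. At 12 d, phosphofructokinase had the lowest mean of the probes above 0. In the order at 15 d, phosphoglycerate kinase, hexokinase, pyruvate kinase and GAPDH (PSOLI03899) each overlapped with the next in the order. GAPDH B came after these, phosphofructokinase followed clear below it at 0.29 ± 0.050, and below 0 only enolase and phosphoglycerate mutase overlapped.

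**Figure D2:**
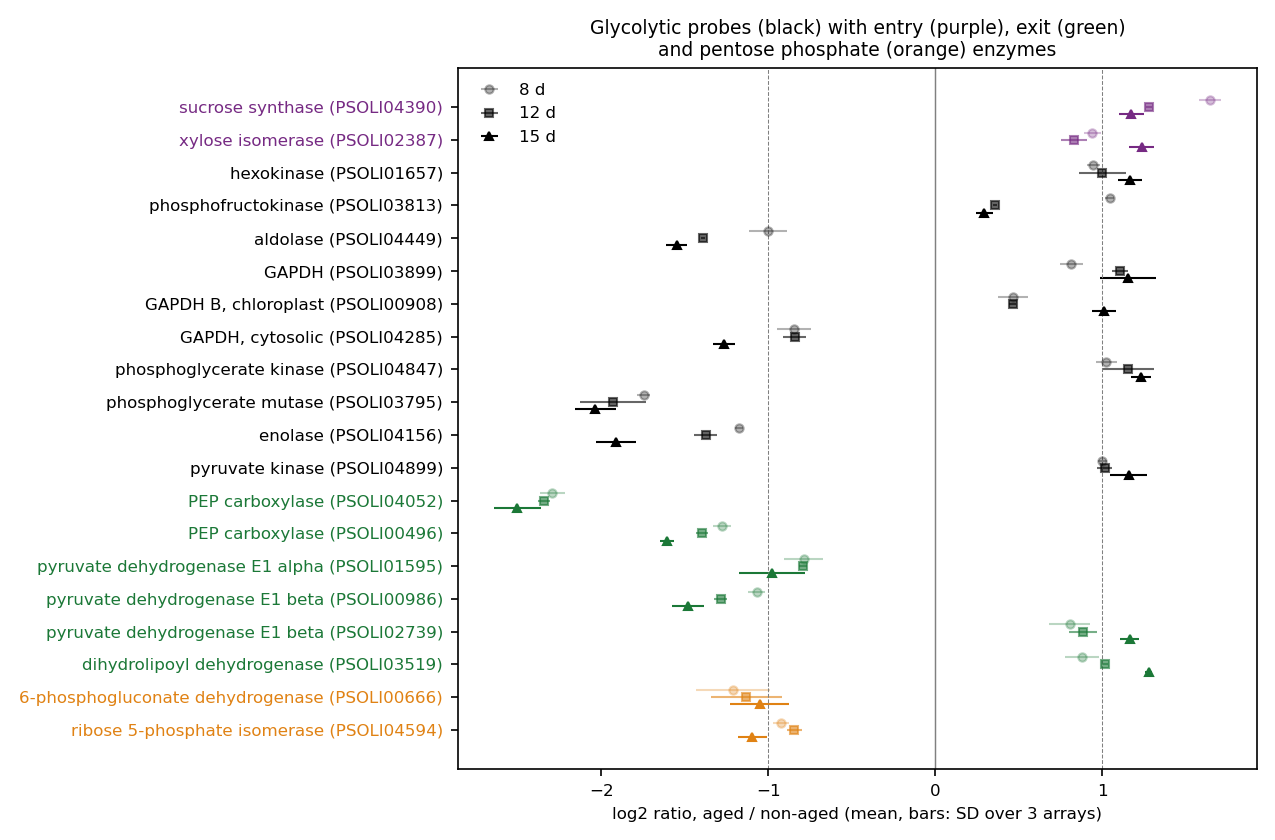
Mean log2 ratio, aged to non-aged (x axis, with bars for the SD over 3 arrays) at 8, 12 and 15 d for the glycolytic probes in pathway order. Probes of enzymes grouped by product name as entry, exit and pentose phosphate pathway are also shown, with dashed lines at 1 and -1. Hexokinase, phosphofructokinase, phosphoglycerate kinase and pyruvate kinase lie right of 0 and aldolase, cytosolic GAPDH, phosphoglycerate mutase and enolase left of 0 at each time.

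Differences between the ageing times were tested in a fit of all arrays with limma, with p-values adjusted over all 5246 probes by the method of Benjamini and Hochberg. This contrast did not list the probes, but the choice bears on it. Phosphofructokinase was called at 8 d alone, GAPDH B and cytosolic GAPDH at 15 d alone, and hexokinase and GAPDH (PSOLI03899) at 12 d and 15 d but not at 8 d, so that these 5 probes entered the list through the times at which they were furthest from 0. Their differences between a time at which they were called and one at which they were not are given with 95% intervals and no p-value, and counts over all 10 probes are no evidence of change. The 5 probes called at all 3 times did not enter the list through some of the times only. Being called at every time is nevertheless also a cut on these values. At 8 d the means of aldolase and pyruvate kinase lay close to the fold threshold. The choice therefore bears on the adjusted p-values and counts of these 5 probes too, which are given with this limit. Between 8 d and 12 d, 4 of the 10 probes passed the test, against 18.5% of all probes, and 2 of the 5 called at all times. Aldolase fell by 0.39 (adjusted p = 0.00045) and enolase fell by 0.20 (adjusted p = 0.04). Phosphofructokinase was lower at 12 d by a log2 difference of -0.69 (95% interval -0.79 to -0.58), and GAPDH (PSOLI03899) had a difference of 0.29 (0.14 to 0.45). The call of enolase was lost when any one array of 8 d, or replicate 1 or 2 of 12 d, was left out (adjusted p of up to 0.14) and when the arrays were scaled to 1 spread (adjusted p = 0.074).

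Between 12 d and 15 d, 3 of the 10 probes passed the test, against 24.2% of all probes. GAPDH B and cytosolic GAPDH, which were called at 15 d alone, made up 2 of these, and of the 5 probes called at all times 1 passed, enolase. GAPDH B was higher at 15 d by 0.55 (95% interval 0.42 to 0.67) and cytosolic GAPDH lower by a difference of -0.42 (95% interval -0.56 to -0.29). Enolase fell by 0.54 (95% interval of the difference -0.67 to -0.40, adjusted p = 4.1e-05). Hexokinase had a difference of 0.17 (adjusted p = 0.089), which reached 0.25 without replicate 2 of 12 d (adjusted p = 0.013), and that of pyruvate kinase, 0.14 (adjusted p = 0.099), reached 0.21 without replicate 2 of 15 d (adjusted p = 0.023). Aldolase had a difference of -0.16 (adjusted p = 0.077). Phosphofructokinase, already close to 0 at 12 d, differed by -0.06 (95% interval -0.17 to 0.04).

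Over the whole interval from 8 d to 15 d, 9 of the 10 probes passed the test, against 38.0% of all probes. At 15 d 4 were higher and 5 lower, against 19.8% and 18.2%. Of the 5 probes called at all 3 times, 4 passed, and being called at every time is itself a cut on these values. Enolase fell by 0.74 (95% interval of the difference -0.87 to -0.60, adjusted p = 7.1e-07), aldolase by 0.55 (adjusted p = 7e-06) and phosphoglycerate mutase by 0.29 (adjusted p = 0.013). Phosphoglycerate kinase rose by 0.21 (adjusted p = 0.031). Pyruvate kinase had a difference of 0.16 (95% interval 0.03 to 0.28, adjusted p = 0.051). The differences of the remaining probes were 0.22 (95% interval 0.08 to 0.36) for hexokinase and 0.34 (0.18 to 0.50) for GAPDH PSOLI03899, called at 12 d and 15 d. For the probes called at 1 time they were -0.75 (95% interval -0.86 to -0.64) for phosphofructokinase, 0.54 (0.42 to 0.67) for GAPDH B and -0.42 (-0.55 to -0.29) for cytosolic GAPDH. The arrays of 8 d and 15 d did not overlap for 9 of the 10 probes, against 47.0% of all probes. For 8 d and 12 d this held for 4 of them, against 33.7%, and for 12 d and 15 d for 5, against 37.0%.

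The wider spread of all ratios at 15 d moved with these differences. When every array was scaled to the same median absolute deviation, 5 of the 10 probes passed the test between 8 d and 15 d, against 26.7% of all probes. Of these, phosphofructokinase, GAPDH B and cytosolic GAPDH had been called at 1 time alone, which leaves aldolase and enolase, 2 of the 5 probes called at all times. After this scaling enolase had a difference of -0.49 and aldolase one of -0.35. Hexokinase was then at 0.06 and GAPDH PSOLI03899 at 0.19. The differences of phosphoglycerate kinase (0.03, adjusted p = 0.78) and pyruvate kinase (-0.01, adjusted p = 0.95) did not pass. That of phosphoglycerate mutase changed sign, to 0.00031 (adjusted p = 1).

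**Figure D3:**
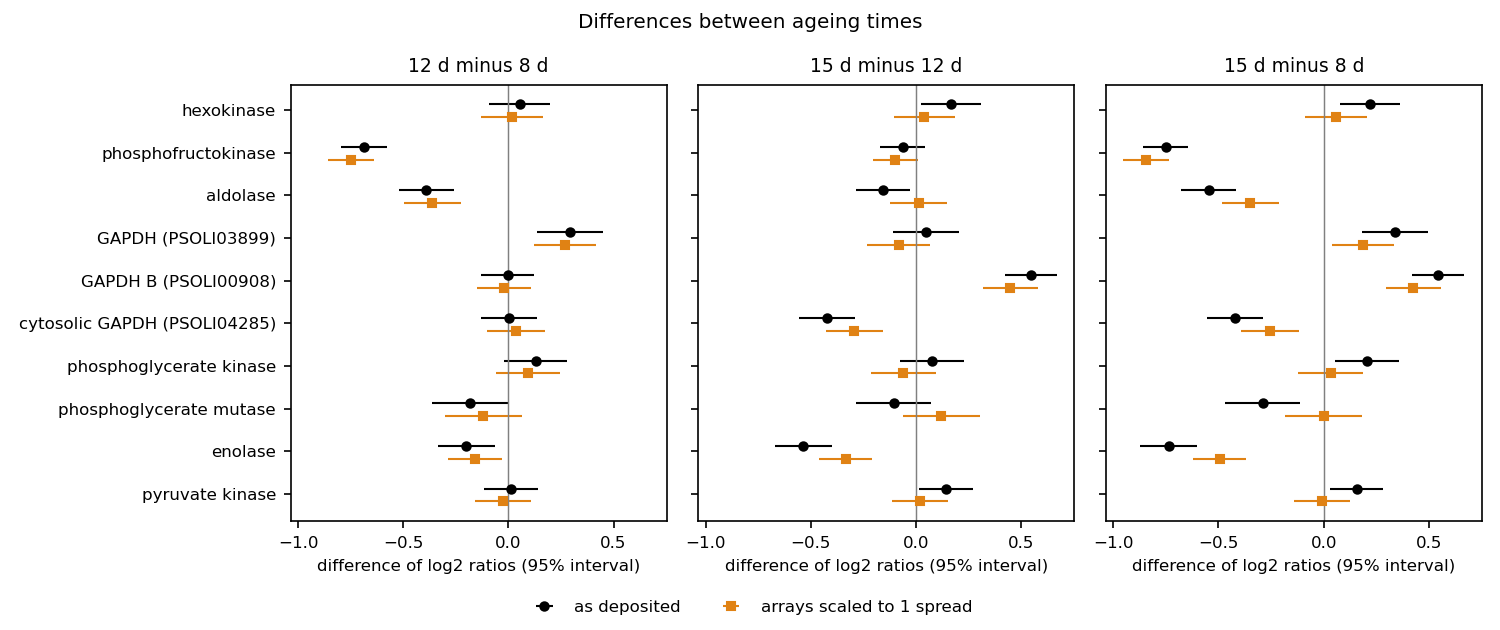
Difference in log2 ratio between ageing times (x axis) for each glycolytic probe, with 95% intervals, from the values as deposited (black) and with the arrays scaled to a common spread (orange). Enolase at -0.74 and phosphofructokinase at -0.75 lie furthest from 0 between 8 d and 15 d, and phosphoglycerate mutase lies at 0 after scaling.

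A line through the means of all probes had a slope of 1.17 for 15 d on 8 d, which describes the general widening. Hexokinase, phosphoglycerate kinase, phosphoglycerate mutase and pyruvate kinase lay within 0.06 of this line. Phosphofructokinase lay off it by -0.93 and enolase by -0.53, followed by GAPDH B at 0.46, aldolase at -0.37, cytosolic GAPDH at -0.27 and GAPDH (PSOLI03899) at 0.20. Of the 4 probes below 0 at 8 d, all but phosphoglycerate mutase, at 0.01, were further below 0 at 15 d than the line gave. Phosphofructokinase had been called at 8 d alone, and GAPDH B and cytosolic GAPDH at 15 d alone. Hexokinase and GAPDH (PSOLI03899) had not been called at 8 d. The choice of these probes bears on their distances from the line, which are a description only.

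**Figure D4:**
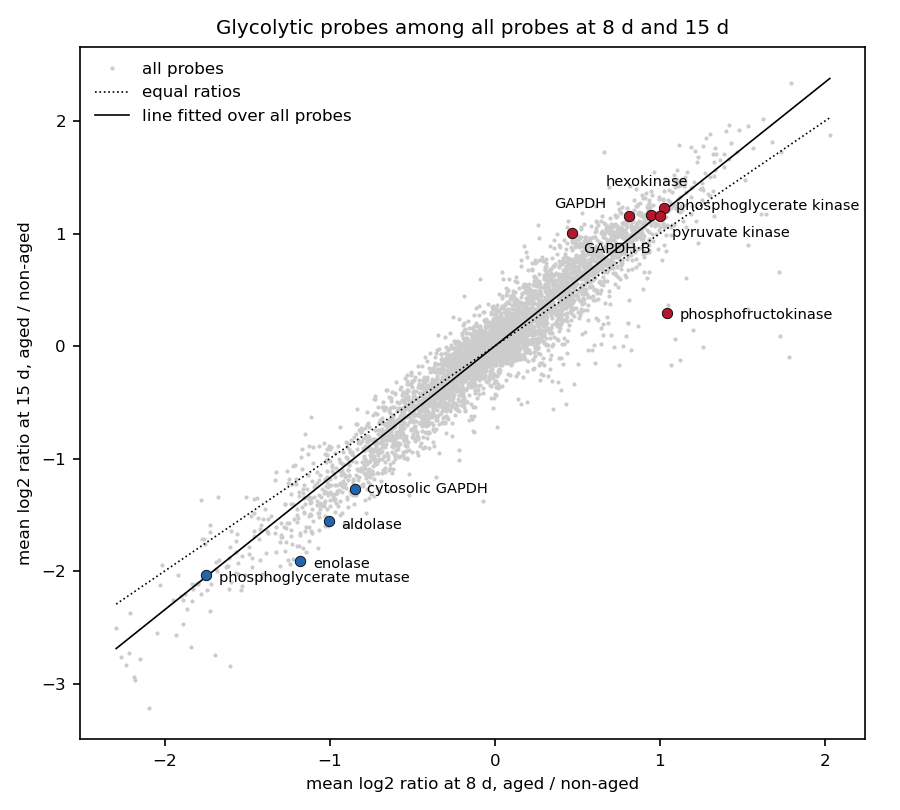
Mean log2 ratio at 15 d (y axis) against that at 8 d (x axis) for all probes (grey) and the glycolytic probes (red above 0, blue below 0 at 15 d), with the line fitted over all probes (slope 1.17) and the line of equal ratios. Phosphofructokinase lies below the fitted line by 0.93, outside the main body of probes, and enolase by 0.53. Hexokinase, phosphoglycerate kinase, pyruvate kinase and phosphoglycerate mutase lie on it within 0.06. Phosphofructokinase was called at 8 d alone, so the choice of probes bears on its distance from the line.

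The dyes were exchanged on replicate 2 of each time. A term for these arrays passed limma's test for 0 of the 10 probes after adjustment and for 0 at an unadjusted p under 0.05, against 0.00% and 5.03% of all probes, and its size was at most 0.095 on the log2 scale. The median residual SD of the glycolytic probes was 0.081, beside 0.074 over all probes.

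The enzymes that supply and drain glycolysis were represented by 10 further probes, all from the same list of called probes, so that their calls over non-aged seeds are no independent evidence. They numbered 1 up and 4 down at 8 d (2.52% and 4.48% of all probes), 2 up and 4 down at 12 d (3.13% and 4.77%), and 4 up and 5 down at 15 d (5.64% and 7.09%). At the entry, sucrose synthase (PSOLI04390), which cleaves sucrose, resembled phosphofructokinase in being highest at the first time, with 1.58, 1.71 and 1.64 at 8 d and 1.13, 1.26 and 1.13 at 15 d. It fell by 0.47 (adjusted p = 1.3e-05), and after scaling of the arrays the difference was -0.68. Xylose isomerase (PSOLI02387) was grouped with the entry by product name only, and interconverts xylose and xylulose, which are not hexoses. It was above 0 at each time, at 1.24 ± 0.075 (SD, n = 3) at 15 d.

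Beyond phosphoenolpyruvate, 4 of the 6 probes of enzymes that compete with or follow pyruvate kinase were below 0 at each time. PEP carboxylase, which takes phosphoenolpyruvate to oxaloacetate, was measured by 2 probes of the same accession number. PSOLI04052 was at -2.29 ± 0.072 (SD, n = 3) at 8 d and -2.50 ± 0.14 at 15 d, and PSOLI00496 at -1.28 ± 0.055 and -1.61 ± 0.040. The pyruvate dehydrogenase complex, which turns pyruvate into acetyl-CoA, had its E1 alpha probe (PSOLI01595) at -0.98 ± 0.20 and its dihydrolipoyl dehydrogenase probe (PSOLI03519) at 1.28 ± 0.023 at 15 d. The E1 alpha probe was in the study's list, but its mean here did not reach the fold threshold at any time. The E1 beta probes PSOLI00986 and PSOLI02739 carried the same accession number and read -1.48 ± 0.097 and 1.16 ± 0.059 at 15 d, a distance of 2.65 ± 0.16. Probes of the same accession number were thus on opposite sides of 0 for the E1 beta subunit, whereas those of PEP carboxylase, and PSOLI03899 and PSOLI00908 of GAPDH, were on the same side. In the pentose phosphate pathway, an alternative route for hexose phosphates, 6-phosphogluconate dehydrogenase (PSOLI00666) was at -1.21 ± 0.22 at 8 d and -1.05 ± 0.18 at 15 d and ribose 5-phosphate isomerase (PSOLI04594) at -0.92 ± 0.049 and -1.10 ± 0.085.

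The probes whose ratios over the 9 arrays were closest to those of each glycolytic probe, by Euclidean distance and with 3 taken per probe, included 0 of the other glycolytic probes among 30. Of these, 23 had a product name, 6 of them as hypothetical proteins. Pyruvate kinase had the closest neighbour, a hypothetical protein (PSOLI00269) at a distance of 0.14, followed by a long-chain-fatty-acid CoA ligase (PSOLI01864) at 0.20. The closest to hexokinase was a legumin B probe (PSOLI02001) at 0.23, to aldolase a 40S ribosomal protein S14 (PSOLI04468) at 0.26, and to enolase adenosylhomocysteinase (PSOLI04530) at 0.30. For PSOLI03899 it was a signal peptide peptidase family protein (PSOLI02511) at 0.25, and for cytosolic GAPDH an expressed protein (PSOLI00937) at 0.23. Phosphofructokinase and phosphoglycerate mutase had fewer probes near them: the second nearest to phosphofructokinase was at 0.49, and the nearest to phosphoglycerate mutase, an F-box/LRR-repeat protein 5 (PSOLI00977), at 0.43. These distances describe likeness on these arrays only.

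By the fold threshold, GAPDH B, with a largest mean of 1.01, and phosphofructokinase, with 1.04, lay just inside. Over all probes, 726 had a largest mean of at least 1 in size, and the value just outside was 0.997.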

How the data were processed

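Each deposited value is 1 log2 ratio per probe and array, which the authors made by background correction, print-tip loess and scaling between arrays in limma (version not given in the sources used here). In the deposited values the median absolute deviation was the same on the arrays of 8 d, at 0.385, and on those of 12 d, at 0.400. It was higher at 15 d, so that arrays of different times were not on a common scale. Values have steps of 0.01, and 0 of them are missing. The number of arrays, 3 per time, limits the precision, and p-values cover only the spread between these arrays. They do not cover a difference in scaling between the ageing times. The direction, aged over non-aged, was taken from the legend of the study's list of called probes, whose sign at 15 d was the same for 716 of 717 probes. All 9 arrays were fitted in limma 3.58.1 (R 4.3.3) with 1 mean per time, which left 6 residual degrees of freedom. Differences between times were tested two-sided at a Benjamini-Hochberg adjusted p under 0.05. Tested on simulated differences between 15 d and 8 d in 5246 probes, the fit recovered 80% of 100 differences of 0.3 and 97% of 100 of 0.6. In the data 38.0% of all probes passed between these times, many more than were changed in the simulation. The share recovered in the data may therefore differ. Python 3.11.15 gave the other values.

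The glycolytic probes, the enzymes next to them in the pathway and all tests were chosen with earlier results of these data known. Named are the glycolytic probes, these pathway neighbours and, for each glycolytic probe, the nearest of the 3 probes closest to it over 9 arrays, or a further one where described. Alternatives were pairs of times alone, the replicate number as a block, a dye term, centring, scaling by the median absolute deviation, a robust prior, leaving out replicates, medians, other thresholds and, added at a later stage and chosen after seeing the data, probes of a shared accession number counted once and leaving out each array. Members' accession numbers had no match in the reference table, so no genome positions are given, and probe sequences were not analysed here. The columns not used numbered 0.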

Additional observations from a re-analysis of the deposited data

Results flagged for a closer look

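Within the glycolytic probes, the effect of ageing differed between ageing times in limma's test at an adjusted p under 0.05 for the following differences in log2 ratio. Between 8 d and 12 d these were phosphofructokinase at -0.69, aldolase at -0.39, GAPDH (PSOLI03899) at 0.29 and enolase at -0.20. Between 12 d and 15 d they were GAPDH B at 0.55, cytosolic GAPDH at -0.42 and enolase at -0.54. Between 8 d and 15 d they were hexokinase at 0.22, phosphofructokinase at -0.75, aldolase at -0.55, GAPDH (PSOLI03899) at 0.34, GAPDH B at 0.54, cytosolic GAPDH at -0.42, phosphoglycerate kinase at 0.21, phosphoglycerate mutase at -0.29 and enolase at -0.74. Groups of 3 arrays are too small for a check of single arrays that stand apart. Phosphofructokinase, GAPDH B, cytosolic GAPDH, hexokinase and GAPDH (PSOLI03899) were not called at every time. They entered the list through the times at which their ratios were furthest from 0, so that their passing is no evidence of a difference. Aldolase, phosphoglycerate kinase, phosphoglycerate mutase and enolase were called at all 3 times, which is also a cut on these values.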

How the results depend on the processing

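Leaving out 1 array or 1 replicate number gave between 2 and 5 glycolytic probes that differed between 8 d and 12 d, between 3 and 4 for 12 d to 15 d and between 7 and 9 for 8 d to 15 d. Called up were then between 2 and 3 at 8 d, 3 and 4 at 12 d and 4 and 5 at 15 d, and called down between 2 and 3 at 8 d, with a constant 3 for 12 d and 4 for 15 d. With a limit of 0.01 on the adjusted p the count for 8 d to 12 d was 2, with one of 0.10 that for 12 d to 15 d was 6, and with the arrays scaled by the median absolute deviation that for 8 d to 15 d was 5. At a log2 ratio of at least 1.5, 0 probes were called up at each time and called down were 1 at 8 d, 1 at 12 d and, for 15 d, 3 probes. The difference of phosphoglycerate mutase between 8 d and 15 d reversed to 0.00031 with this scaling. Without replicate 1 of 15 d it was -0.22 (adjusted p = 0.068). Phosphoglycerate kinase lost its call without replicate 1 or 2 of 8 d or replicate 2 or 3 of 15 d, with adjusted p-values of up to 0.12. Of all differences of single probes between times, 528 kept their side of the threshold, 26 lost the call and 9 gained it. A further 1, which had passed, reversed. Among the 528 were differences that did not pass and changed sign. With scaled arrays that of phosphoglycerate mutase from 12 d to 15 d, for example, went from -0.11 to 0.12. Same-numbered replicates of different times had deviations that correlated at between -0.012 and 0.056, so the numbers did not pair the arrays; with the replicate number as a block the counts were 4, 3 and 10, and pyruvate kinase passed between 8 d and 15 d (0.16, adjusted p = 0.04).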

Other observations

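Probes with the same accession number and opposite directions occurred beside those of the E1 beta subunit of pyruvate dehydrogenase. Counted were probes of the study's list whose largest mean here was at least 1 in size. Among these, 36 accession numbers were carried by at least 2 probes, 77 probes in all. For 17 of these accession numbers the probes had ratios of opposite sign at 15 d. How often probes of different accession numbers have opposite signs was not computed, so nothing is read from this count.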
